A study of Mus musculus with 16 samples.

Results

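Arg1-positive cells of the rejecting kidney were selected on 1 gene. In the CD45+ cells of rejecting kidney allografts 1 week after transplantation, a cell was a member when it carried at least 2 unique molecular identifiers (UMIs, the tags that mark single captured mRNA molecules) of Arg1 and none of Cd3e, Cd3d, Cd3g, or Cd79a. The rule found 140 of 11948 CD45+ cells. Arg1 itself is therefore given as a description and carries no test. Ccl2, Ccl7, and Hmox1 were named as markers of these cells from the same data, and their values are likewise no independent evidence.

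The rejecting grafts were wild-type C57BL/6J (B6) kidneys placed in DBA/2J recipients, a fully mismatched combination of inbred strains, and the study used male mice. The sample labels give C57BL/6J as the strain and no age, and host and donor cells were not separated in the sort. Kidneys were digested with collagenase, viable CD45+ cells were sorted, and 3′ droplet libraries were made. The cell barcodes carry 2 library tags, R7K2 (library 1, 5377 cells, 13437087 UMIs) and R7K3 (library 2, 6571 cells, 19552578 UMIs), and the labels tie neither to an animal. Naive spleen of wild-type C57BL/6J mice, with 5 libraries and 47060 CD45+ cells, is the only untreated tissue used here.

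Arginase 1 hydrolyses arginine to ornithine and urea. In macrophages it competes with inducible nitric oxide synthase, encoded by Nos2, for the same substrate, and ornithine feeds the synthesis of polyamines and proline. Monocytes that enter inflamed tissue carry Ly6c2 and Ccr2, and tissue macrophages carry the complement genes C1qa, C1qb, and C1qc. CCL2 and CCL7 are ligands of CCR2 that draw monocytes, and heme oxygenase 1, encoded by Hmox1, breaks down heme to biliverdin, carbon monoxide, and iron.

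Arg1-positive cells made up 0.837% of CD45+ cells in library 1 (45 cells, 95% exact Clopper-Pearson interval 0.611 to 1.12) and 1.45% in library 2 (95 cells, 1.17 to 1.76). Of the cells without a CD3 or Cd79a UMI that either held a Lyz2 or Csf1r UMI or were members, they were 1.57% and 2.16%. All intervals cover counting error only. Members held a median of 4 Arg1 UMIs, from 2 to 38. The summed Arg1 level was 2204 CPM in library 1 and 1548 CPM in library 2, where CPM is the UMIs of a gene scaled to a total of 1000000 UMIs for the summed class. Just outside the rule lay 112 cells with exactly 1 Arg1 UMI, and just inside it lay 41 cells with exactly 2. A further 40 cells had at least 2 Arg1 UMIs but also a CD3 or Cd79a UMI and were left out. As a background, 5 of the 2184 cells that the authors called CD8+ T cells in this graft held an Arg1 UMI (0.229%), at a median of 1964 UMIs per cell. After each of these cells was thinned to 1000 UMIs, the share was 0.0458%. Cells with a CD3 or Cd79a UMI were not used as a background, since 1798 of those 4005 cells also held a Lyz2 or Csf1r UMI. In naive spleen, 106 of 47060 cells held an Arg1 UMI and 1 cell met the rule.

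Members were deeper than other myeloid cells. Their median was 3404 UMIs in library 1 and 3203 UMIs in library 2, against 2204 and 2362 UMIs for Arg1-negative myeloid cells, which had a Lyz2 or Csf1r UMI and no UMI of Arg1 or the 4 lymphocyte genes. A threshold on raw UMIs favours deep cells. Counts of genes are also given after each cell was thinned to the same number of UMIs. The classes stayed as chosen on raw UMIs, so thinning does not address this choice of deep cells. It evens out the depth at which genes are counted. It also lowers the members' sums, from 165135 and 342397 UMIs to 45000 and 95000 UMIs in libraries 1 and 2. Comparison cells matched to the members in depth were not tested. The median share of mitochondrial UMIs was 1.08% and 0.537% in members and 1.04% and 0.607% in Arg1-negative cells. No doublet caller was run. A UMI of a T, NK, B, or plasma cell marker, or UMIs of at least 2 kidney genes, marked 12.9% of members as mixed, against 16.3% of Arg1-negative cells. The 2 libraries shared 13 cell barcodes, none of them a member, and none of the 2184 CD8+ T cells was a member.

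The name macrophage fitted the members in part. All 14 macrophage markers, among them Adgre1, Csf1r, Mertk, and Cd68, had UMIs in both libraries, and their summed level was 19996 CPM in library 1 and 9390 CPM in library 2. In Arg1-negative cells that sum was 14270 and 11200 CPM. It counts Lyz2 and Csf1r, of which a UMI was required in Arg1-negative cells, so the sums do not compare the classes fairly. Of the 12 other markers, 11 had a positive change in members in the first comparison below (median 0.50), and 5 passed the test. A Lyz2 or Csf1r UMI was present in 136 of 140 members. However, C1qa, C1qb, and C1qc together reached 2 UMIs in only 62 members (44.3%), with 80.0% in library 1 and 27.4% in library 2. Ly6c2 reached 3 UMIs in 46 members (32.9%), with 6.67% in library 1 and 45.3% in library 2. Both limits were met by 11 members and neither by 43. The members are therefore called Arg1-positive cells here, a mixture of C1q-positive macrophages, Ly6c2-high monocytes, and cells of neither kind.

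**Figure D1:**
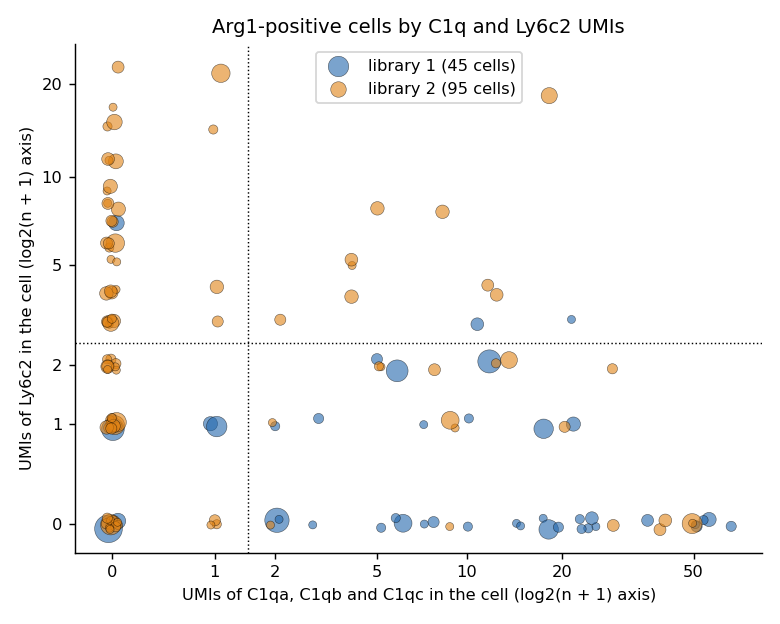
Each point is 1 of the 140 Arg1-positive cells, placed by its UMIs of C1qa, C1qb, and C1qc together (x axis) and of Ly6c2 (y axis), both on a log2(n + 1) axis with a small spread added to separate points. Point size grows with Arg1 UMIs, dotted lines mark 2 C1q UMIs and 3 Ly6c2 UMIs, and members of library 1 (45 cells) lie mostly to the right while those of library 2 (95 cells) lie mostly to the left.

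The split followed the libraries in part. Among Arg1-negative myeloid cells, 45.6% of library 1 and 17.8% of library 2 reached 2 C1q UMIs, and 8.27% and 43.0% reached 3 Ly6c2 UMIs. The Ly6c2 shares of the members lay near these, but their C1q shares, 80.0% and 27.4%, were higher in both libraries. The members were also deeper. The part of this difference in make-up in the results for macrophage genes was not tested. Library and animal cannot be told apart. For this reason each test below kept the library as a block, and 2 narrower classes of the same libraries served beside the Arg1-negative cells. C1q-positive macrophages numbered 1293 and 773 cells with at least 2 C1q UMIs and no Arg1 UMI. Ly6c2-high monocytes numbered 183 and 1656 cells with at least 3 Ly6c2 UMIs, fewer than 2 C1q UMIs, and no Arg1 UMI.

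Markers of other lineages were summed in the same way. All 7 mast cell and basophil markers were at 0 in both libraries. Of 20 kidney parenchyma genes, 17 were at 0 in library 1 and 16 in library 2, with summed levels of 36.3 and 35.0 CPM against 40.1 and 31.1 CPM in Arg1-negative cells. T cell markers summed to 24.2 and 23.4 CPM, against 52.1 and 47.9 CPM, and NK cell markers to 78.7 and 11.7 CPM, against 101 and 113 CPM. Neutrophil markers summed to 212 and 137 CPM, against 319 and 496 CPM. Dendritic cell markers summed to 24.2 and 38.0 CPM, against 67.1 and 83.4 CPM. A single Lyz2 or Csf1r UMI was enough to enter the Arg1-negative class, so that class may hold cells other than macrophages and monocytes. Endothelial and fibroblast genes summed to 157 and 49.7 CPM, against 78.2 and 49.4 CPM, so they were higher in the members of library 1. Their part in the results was not tested.

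The first comparison asked how Arg1-positive cells differed from Arg1-negative myeloid cells of the same library. UMIs were summed for each class in each library, which gave 4 sums, and edgeR's quasi-likelihood test was run with the library as a block. Of 11009 genes tested, 116 were higher (1.05%) and 136 lower (1.24%) in Arg1-positive cells at an adjusted p under 0.05. The sign was the same in both libraries for 249 of these 252 genes. The calls were made from the same 2 libraries, so this is no replication. Changes are log2 fold changes with the standard error of the fit. The median over all genes was −0.041. Counts over the gene lists below are to be read against the 1.05% higher and 1.24% lower over all genes. The genes that rose included monocyte-drawing chemokines, Hmox1, genes of glycolysis and hypoxia, and scavenger and lipid receptors, and those that fell included Ciita, Tnf, Vcan, Hp, and Plac8.

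Of 17 chemokine genes tested, 8 were higher and 2 lower (median 1.04). Ccl7 stood at 78.7 and 242 CPM in the Arg1-positive cells of libraries 1 and 2, against 16.2 and 51.5 CPM in Arg1-negative cells, a change of 2.25 ± 0.27 (edgeR, adjusted p = 1.54e-13). Its level was 4.85 times as high in library 1 and 4.71 times in library 2. Both values of the members lay above both values of the other cells, although library 2 was the higher in each class. Ccl2 stood at 78.7 and 204 CPM against 26.3 and 65.1 CPM, a change of 1.63 ± 0.26 (edgeR, adjusted p = 1.92e-07). The genes lie close together on chromosome 11 of GRCm38, Ccl2 at chr11:82035571-82037453 and Ccl7 at chr11:82045712-82047525, with Ccl12 at chr11:82101845-82103400 and Ccl8 at chr11:82115185-82116799.

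Ccl12, another CCR2 ligand, stood at 42.4 and 213 CPM against 19.8 and 97.0 CPM (1.13 ± 0.26). Ccl8 stood at 345 and 199 CPM against 88.2 and 53.7 CPM (1.92 ± 0.20), but only 17 members held it and 1 cell held 33 of its 125 UMIs. Without that cell the log2 ratio of library 2 went from 1.90 to 0.97. Cxcl14 (2.67), Ccl9 (1.04), and Cxcl16 (0.44) were also higher. The lower chemokines were Ccl3 (−2.33, 4 UMIs in the members) and the interferon-induced Cxcl10 (−0.53), whose levels were 236 and 470 CPM against 293 and 728 CPM. Cxcl9, which draws T cells through CXCR3, was abundant in both classes at 3052 and 4282 CPM in members and 3003 and 4104 CPM in Arg1-negative cells (0.04 ± 0.11, adjusted p = 0.969).

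A minority of members held the 2 marker chemokines. Ccl2 had a UMI in 31.4% of members and 8.47% of Arg1-negative cells, and in 14.3% and 4.05% after thinning each cell to 1000 UMIs. Ccl7 had a UMI in 22.9% and 4.33%, and in 12.9% and 2.31% after thinning. In the CD8+ T cells, 0.0916% held Ccl2 and 0.0458% held Ccl7 without thinning. A UMI of Ccl2 or Ccl7 was found in 55 members (39.3%, 95% exact interval 31.1 to 47.9), of which 33 also held Hmox1. The 33 cells are 23.6% of members, against 3.54% of Arg1-negative cells without thinning. Arg1-positive cells of library 2 held Ccl2 or Ccl7 more often (47.4%) than those of library 1 (22.2%), and the 2 exact intervals, 37.0 to 57.9 and 11.2 to 37.1, overlapped slightly. The same order was seen in Arg1-negative cells (13.5% in library 2 and 6.97% in library 1) and in C1q-positive macrophages (19.4% and 10.7%).

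Hmox1 (chr8:75093621-75100589) stood at 442 and 482 CPM in members and 158 and 201 CPM in Arg1-negative cells, a change of 1.35 ± 0.16 (edgeR, adjusted p = 3.5e-15). The groups did not overlap, and the 2 libraries lay close together in each, though few cells carried much of the members' sums. In library 1, a member with 25 Hmox1 UMIs and another with 17 held most of the UMIs of that library. Its level without both was not computed. One cell of library 2 held 33 of the 238 Hmox1 UMIs, and the log2 ratio of that library went from 1.27 to 0.96 without it. Hmox1 was detected in 44.3% of members and 20.6% of Arg1-negative cells, and in 20.7% and 10.6% after thinning, with 0.641% of thinned CD8+ T cells. Of 18 heme, iron, and antioxidant genes tested, 5 were higher and none lower (median 0.41). They were Hmox1, the heme transporter gene Slc48a1 (1.10), the peroxiredoxin gene Prdx1 (0.43), and the ferritin genes Ftl1 (0.42) and Fth1 (0.39). Slc48a1 and Prdx1 lost their calls under TMM scaling, and all 4 genes other than Hmox1 lost them after thinning. In naive spleen, where 1056 myeloid cells were counted, Hmox1 was at 183 to 329 CPM across the 5 libraries.

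**Figure D2:**
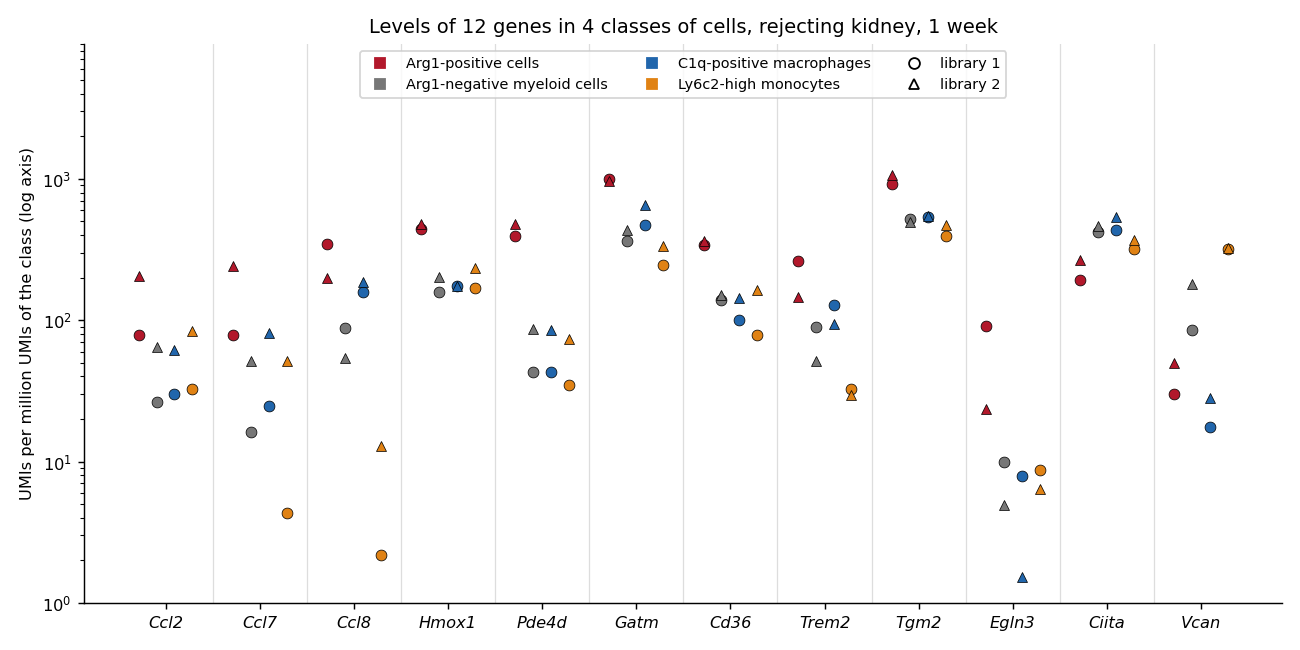
Levels of 12 genes in CPM (log axis) for Arg1-positive cells, Arg1-negative myeloid cells, C1q-positive macrophages, and Ly6c2-high monocytes, with library 1 as circles and library 2 as triangles, 1 point for each summed class. For Ccl7 the members lie at 78.7 and 242 against 16.2 and 51.5 in Arg1-negative cells, and for Pde4d at 394 and 482 against 42.8 and 86.2.

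In the pathway that Arg1 belongs to, 2 of 16 tested genes of arginine and polyamine metabolism were higher and none lower (median 0.27). Gatm, whose product makes the creatine precursor guanidinoacetate from arginine and glycine, stood at 993 and 961 CPM against 366 and 436 CPM (1.28 ± 0.13, adjusted p = 9.79e-21). The members' values were nearly the same in both libraries and lay above both values of the other cells. Slc7a2, a transporter of cationic amino acids including arginine, stood at 285 and 40.9 CPM against 48.0 and 30.6 CPM (1.72 ± 0.28), so that its groups overlapped and the size of the difference came mostly from library 1. Genes next in the pathway did not pass the test. Odc1, which makes putrescine from ornithine, changed by 0.65 ± 0.38, Oat by 0.91 ± 0.40, and Srm by 0.84 ± 0.53. Arg2, the mitochondrial arginase, had 6 UMIs in all members.

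Nos2 did not pass the test in this comparison. It stood at 121 and 111 CPM in members and 51.0 and 80.6 CPM in Arg1-negative cells (0.76 ± 0.26, adjusted p = 0.119), and 21 of 140 members held a UMI of Nos2 beside Arg1. Ass1, which serves the resynthesis of arginine, stood at 176 and 365 CPM against 200 and 305 CPM (0.11 ± 0.17).

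Genes of glycolysis and hypoxia were on the higher side. All 24 tested genes had a positive change, 11 passed the test, and none was lower (median 0.59). Egln3, an oxygen-sensing prolyl hydroxylase induced by hypoxia, stood at 90.8 and 23.4 CPM against 9.88 and 4.90 CPM (2.80 ± 0.50), with 23 UMIs in 15 members. The mitophagy gene Bnip3 stood at 236 and 105 CPM against 71.9 and 73.0 CPM (1.09 ± 0.23). Among abundant enzymes, Gapdh stood at 1369 and 2009 CPM against 805 and 1239 CPM (0.73 ± 0.11), and Pgk1 at 672 and 578 CPM against 314 and 368 CPM (0.85 ± 0.14). Vegfa, Aldoa, Tpi1, Ldha, Pkm, Mif, and P4ha1 were the others. The glucose transporter gene Slc2a1, at 145 and 129 CPM against 123 and 120 CPM, did not pass (0.16 ± 0.22). After thinning to 1000 UMIs, Gapdh, Pgk1, and Aldoa kept their calls and the other 8 genes lost theirs.

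Pde4d had the smallest adjusted p of all genes tested in the comparison. It encodes a phosphodiesterase that degrades cyclic AMP, and the gene spans chr13:108449948-109953461. Its level was 394 and 482 CPM in members and 42.8 and 86.2 CPM in Arg1-negative cells, a change of 2.77 ± 0.18 (edgeR, adjusted p = 3.28e-50). Members with a Pde4d UMI numbered 76 of 140 (54.3%), against 9.84% of Arg1-negative cells and 15.2% of CD8+ T cells. The thinned shares were 34.3%, 5.18%, and 7.78%.

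Genes tied to alternative activation, the program that interleukin 4 induces in macrophages, were higher in 6 of 12 tested cases and lower in none (median 1.07). The list holds 18 genes, of which 5 had no UMI in the members of library 1 and 6 had none in those of library 2. Tgm2, encoding a transglutaminase, stood at 920 and 1063 CPM against 516 and 497 CPM (0.98 ± 0.12), and the scavenger receptor gene Cd36 at 339 and 362 CPM against 140 and 151 CPM (1.27 ± 0.17). Pdcd1lg2, which encodes the PD-1 ligand PD-L2, stood at 121 and 38.0 CPM against 23.4 and 18.4 CPM (1.73 ± 0.36). Each of these genes was above both values of the Arg1-negative cells in both libraries. Mrc1, the mannose receptor gene, stood at 254 and 70.1 CPM against 46.7 and 7.0 CPM (2.78 ± 0.30), carried by 20 members. For Ccl24 and Chil3, 1 cell of library 1 each held a large share of the UMIs. It held 54 of 89 Ccl24 UMIs, which 7 members carried, and without it the log2 ratio of library 1 went from 5.62 to 4.26. For Chil3 it held 26 of 53 UMIs, and without it the ratio went from 2.61 to 1.45. Chil3 was at 279 and 20.4 CPM in members and 46.2 and 52.2 CPM in Arg1-negative cells, so its direction differed between the libraries.

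Of 20 complement and lipid genes, 6 were higher, 1 was lower, and 13 did not pass (median 0.24). Of 12 macrophage markers, 5 were higher, among them Ms4a7 and Apoe, and 7 did not pass, and 3 of the 5 lost their calls after thinning. Trem2, a lipid receptor of macrophages, stood at 260 and 146 CPM against 89.9 and 51.5 CPM (1.52 ± 0.22), and the cholesterol exporter gene Abca1 at 260 and 102 CPM against 144 and 33.3 CPM (1.19 ± 0.23). Apoe stood at 9465 and 1192 CPM against 4472 and 597 CPM (1.04 ± 0.11), a ratio of 2.12 in library 1 and 2.00 in library 2 over a wide gap between the libraries. The lower gene was complement C3 (−0.55). Of 16 lysosome and phagocytosis genes, 7 were higher and none lower (median 0.38), led by Stab1 (1.42), Lgmn (0.95), and Ctsl (0.88). Dab2, an endocytic adaptor, stood at 266 and 339 CPM against 109 and 83.3 CPM (1.73 ± 0.18). Members reached 2 C1q UMIs more often than Arg1-negative cells, so these lists are also given against C1q-positive macrophages, the second comparison below. There, 5 of 17 complement and lipid genes were higher and 1 lower. Of these 6 calls, 1 was kept after thinning and 1 in DESeq2. Of 15 lysosome and phagocytosis genes, 5 were higher and 1 lower, and none of the 6 calls was kept in either.

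Among matrix and repair genes, 3 of 24 were higher and 2 lower (median 0.17). Fibronectin, Fn1, stood at 96.9 and 111 CPM against 32.5 and 33.6 CPM (1.67 ± 0.30), and Ecm1 at 96.9 and 114 CPM against 31.3 and 44.0 CPM (1.46 ± 0.29). Tgfbi was higher by 0.44, and Serpinb2 (−2.24, 4 UMIs in 1 member) and F10 (−0.99) were lower. The remaining leading genes were the integrin gene Itga6 (2.32), Arhgap10 (1.82), and AA467197 (1.77). Itga6 stood at 145 and 43.8 CPM against 17.8 and 14.8 CPM, lost its call after thinning, and at a threshold of 5 Arg1 UMIs changed by 0.58 without passing.

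Lower genes came from several groups. Of 18 interferon response genes, 4 were lower and none higher (median −0.21), and these were Ciita, Gbp5, Irf1, and Cxcl10. After thinning and in DESeq2 only Ciita kept its call, and Irf1 and Cxcl10 kept theirs in 5 of 12 alternatives. Ciita, the master regulator of MHC class II, stood at 194 and 269 CPM against 421 and 461 CPM (−0.90 ± 0.16), and Gbp5 at 321 and 383 CPM against 441 and 778 CPM (−0.81 ± 0.15). Of 8 MHC class II genes, Ciita and H2-Aa (−0.35) passed the test, and H2-Aa lost its call under most alternatives. An MHC class II UMI was present in 138 of 140 members and in 97.7% of Arg1-negative cells, so this share does not set the members apart. Of 17 inflammatory genes, 3 were lower and none higher (median −0.28): Tnf (−1.33), Acod1 (−0.89), and Il1b (−0.53). Tnf and Il1b kept their calls in 6 of 12 alternatives, and all 3 genes lost them after thinning and in DESeq2. Il1b stood at 642 and 193 CPM in members and 693 and 391 CPM in Arg1-negative cells, so it differed mainly in library 2.

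Of 10 classical monocyte genes, 3 were lower (Vcan, Hp, and Plac8) and 2 higher (Fn1 and Chil3). Vcan stood at 30.3 and 49.6 CPM against 84.8 and 180 CPM (−1.77 ± 0.30), Hp at 24.2 and 61.3 CPM against 86.7 and 189 CPM (−1.67 ± 0.29), and Plac8 at 503 and 581 CPM against 834 and 1118 CPM (−0.86 ± 0.13). Plcb1, a phospholipase C gene, fell in the same way (−1.77 ± 0.26). S100a8 stood at 90.8 and 67.2 CPM against 127 and 279 CPM (−1.52 ± 0.24), and S100a9 had 3 UMIs in all members. Ly6c2 and Ccr2 did not pass, with changes of −0.23 ± 0.14 and −0.24 ± 0.13. Of 8 genes of nonclassical monocytes, 4 were lower, among them Adgre4 (−2.60) and Treml4 (−1.71). None of the 4 kept its call after thinning, and Treml4 kept it in 3 of 11 alternatives. Grk3, Traf1, Gpr132, Plcl1, Nedd9, and Stk40 completed the 10 leading lower genes, with changes from −1.89 to −1.51. No gene of the cell cycle list passed among 13 tested.

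The 252 calls depended on the fit and on the comparison cells. Requiring at least 2 UMIs of Lyz2 and Csf1r together in the comparison cells gave 226 calls. Requiring at least 2 other macrophage genes in both classes gave 168. Without the library block no gene passed in edgeR (578 had an unadjusted p under 0.05), DESeq2 called 52 genes (35 higher and 17 lower), thinning each cell to 1000 UMIs left 63, and keeping comparison cells with a CD3 or Cd79a UMI gave 451. After thinning, 4 of 10 calls were kept among chemokine genes, 3 of 6 in alternative activation, 4 of 7 each in the complement and lipid and the lysosome lists, and 1 of 5 among matrix genes. The ratios of the 2 libraries differed by over 1.5 times for 38 of the 87 genes that passed and were in a gene list or among the leading genes, for 27 of 65 such genes in the second comparison below, and for 44 of 89 in the third. Of the 87 genes, 27 passed in every alternative except the fit without the block, among them Ccl2, Ccl7, Ccl8, Ccl24, Hmox1, Pde4d, Gatm, Slc7a2, Cd36, Trem2, Tgm2, Dab2, Lgmn, Gapdh, Ciita, Hp, and Plcb1.

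**Figure D3:**
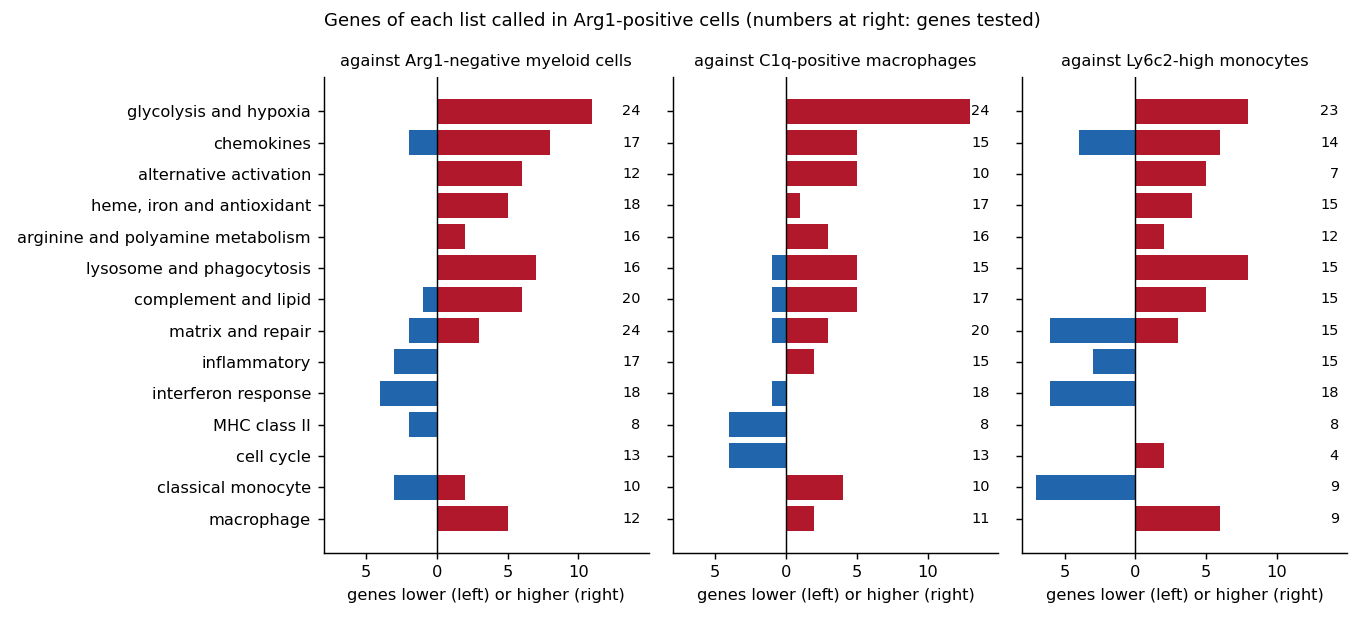
For 14 gene lists, bars show how many genes were called higher (red, to the right) or lower (blue, to the left) in Arg1-positive cells against Arg1-negative myeloid cells, C1q-positive macrophages, and Ly6c2-high monocytes, with the number of genes tested at the right of each panel. Glycolysis and hypoxia genes were called higher in all 3 panels (11 of 24, 13 of 24, and 8 of 23) and lower in none, and after thinning 3, 0, and 0 of these calls were kept.

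The second comparison set Arg1-positive cells against C1q-positive macrophages, which share the complement genes with 62 of the members. Of 9143 genes tested, 93 were higher (1.02%) and 67 lower (0.733%). This comparison and the next use the same sums of Arg1-positive cells as the first, so the 3 are not independent. Pde4d (2.79 ± 0.19) and Hmox1 (1.41 ± 0.17) were again higher. Pde4d stood at 43.0 and 85.3 CPM in C1q-positive macrophages and Hmox1 at 176 and 174 CPM. Ccl2, at 30.2 and 61.4 CPM in the macrophages, was higher in members by 1.63 ± 0.26, and Ccl7, at 24.5 and 81.0 CPM, by 1.61 ± 0.25. For Ccl7 the members' value in library 1, 78.7 CPM, lay below the macrophages' value in library 2, so the groups overlapped across libraries while the ratio within each was 3.21 and 2.99. Ccl8 did not pass the test here, with a ratio of 2.19 in library 1 and 1.07 in library 2.

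Genes of classical monocytes were among the higher ones. This was set in part by the class rules, since all macrophages but only some members reached 2 C1q UMIs. In libraries 1 and 2, 6.67% and 45.3% of members reached 3 Ly6c2 UMIs, against 3.56% and 21.1% of the macrophages. The top genes beside Pde4d were Chil3 (2.86, 26 of 53 UMIs in 1 cell), Fn1 (2.52 ± 0.36), Mrc1 (2.20 ± 0.28), and the coagulation factor XIII gene F13a1 (2.01 ± 0.26). F13a1 stood at 176 and 137 CPM in members and 48.3 and 30.7 CPM in the macrophages. Of 10 classical monocyte genes, 4 were higher and none lower, and after thinning none of the 4 kept its call (3 were lost and 1 was too sparse to be tested). Glycolysis and hypoxia genes again had a positive change in all 24 cases, and 13 passed (median 0.64, against −0.056 over all genes). Of these, 12 lost their calls after thinning and 10 in DESeq2, and Egln3 was too sparse to be tested after thinning. Nos2 passed here, at 121 and 111 CPM against 57.3 and 60.3 CPM (0.96 ± 0.26, edgeR, adjusted p = 0.0203), but kept its call in only 3 of 9 alternatives. The acute phase gene Saa3 was higher as well, at 90.8 and 304 CPM against 39.1 and 116 CPM (1.34 ± 0.23). Both Saa3 and Nos2 lost their calls after thinning and in DESeq2.

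The count of lower genes was 67 with the library block, 0 after thinning, 1 in DESeq2, and 3 without very deep cells. Of 8 MHC class II genes, 4 were lower: Ciita (−1.06 ± 0.18), H2-Aa (−0.58), H2-Eb1 (−0.56), and H2-Ab1 (−0.48). H2-Ab1 stood at 4675 and 2903 CPM in members and 5347 and 4905 CPM in the macrophages. Of 13 cell cycle genes, 4 were lower, Mki67 (−1.32), Top2a (−0.91), Pclaf (−1.44), and Ccnb2 (−3.65, 1 UMI in the members). The 7 of these MHC class II and cell cycle genes other than Ccnb2 lost their calls after thinning and in DESeq2, and Ccnb2 had no adjusted p in either. Top2a was at 176 and 137 CPM against 147 and 418 CPM, lower only in library 2. Dividing cells, with at least 2 of 5 division genes, were 8.89% of members in library 1 and 8.42% in library 2 (12 cells in all). They were 6.73% and 18.2% of C1q-positive macrophages and 3.54% and 5.83% of Arg1-negative cells. In library 1 the members' share was 4 cells, with an exact interval of 2.48 to 21.2% that held the macrophages' 6.73%, so no order is read there. In library 2 the members lay below the macrophages, with an interval of 3.71 to 15.9%. The members were deeper than either class in both libraries. The leading lower genes were Grap2, Hist1h1b, Spn, Ppfia4, and Grk3, with changes from −2.09 to −1.69. Thinning left 3 calls in this comparison, leaving out very deep cells left 27, DESeq2 made 22 (21 higher and 1 lower), and the fit without the block made 0 (330 at an unadjusted p under 0.05 in edgeR). Among the 65 list and leading genes that passed, 3 did so in every alternative except the fit without the block, and these were Pde4d, Hmox1, and Cd36.

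The third comparison set the members against Ly6c2-high monocytes, the class that 46 of the members resembled in Ly6c2. Here 5726 genes were tested, fewer since library 1 held only 183 such monocytes, and 194 were higher (3.39%) and 219 lower (3.82%). Mrc1 was at 254 and 70.1 CPM in members and 6.51 and 4.30 CPM in the monocytes (4.36 ± 0.41). Ccl8 was at 345 and 199 CPM against 2.17 and 12.9 CPM (4.40 ± 0.31). The monocytes' level in library 1 was near the floor, so the ratio differed widely between the libraries. Pde4d (2.91 ± 0.23), the potassium channel gene Kcnk13 (2.80 ± 0.38), and the DNA ligase gene Lig1 (2.69 ± 0.30) were the other leading genes. Kcnk13 stood at 84.8 and 99.3 CPM against 8.68 and 15.4 CPM and was held by 34 members. In the monocytes, Mrc1, Ccl8, and Kcnk13 lay below the limit of the filter on low counts in both libraries. These genes were tested only because the members' sums were high, so their tests are no independent evidence.

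Of 9 macrophage markers tested, 6 were higher, among them Ms4a7 (2.58), Apoe (2.24), and the efferocytosis receptor gene Mertk (1.90 ± 0.31). After thinning 2 of the 6 calls were kept, 2 were lost, and 2 genes were too sparse to be tested. Of 9 classical monocyte markers, 7 were lower, led by Vcan (−2.92), Hp (−2.53), and Plac8 (−1.68). These 3 genes kept their calls after thinning and the other 4 lost them. Ly6c2 chose the monocytes and was not tested. The monocytes also held fewer than 2 C1q UMIs by rule, while 80.0% and 27.4% of members in libraries 1 and 2 reached 2. Differences in macrophage and monocyte markers were therefore set in part by the class rules and are no independent evidence. Of 15 lysosome and phagocytosis genes, 8 were higher and none lower (median 0.62, against 0.020 over all genes), and 4 kept their calls after thinning. The 2 marker chemokines were higher once more, Ccl7 by 2.44 ± 0.31 and Ccl2 by 1.28 ± 0.29 (lost in DESeq2), as were Hmox1 (1.17 ± 0.20) and Gatm (1.72 ± 0.18). The log2 ratio of Ccl7 was 3.91 in library 1, where the monocytes held 2 of its UMIs, and 2.24 in library 2. Of 18 interferon response genes, 6 were lower, 3 of them also after thinning, and Gbp5 stood at 321 and 383 CPM against 601 and 934 CPM (−1.13 ± 0.19). Immediate early and heat shock genes were lower in 5 of 13 cases, Hspa1b, Hspa1a, Ier2, Jun, and Jund. All 5 lost their calls after thinning and in DESeq2, all but Hspa1b lost them with TMM factors, and Jun kept its call in 1 of 9 alternatives. Of 4 cell cycle genes tested here, Top2a (1.72 ± 0.29) and Stmn1 (1.68 ± 0.50) were higher, the latter with 22 UMIs in 12 members.

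DESeq2 called 60 genes against the monocytes, TMM scaling 234, thinning left 87, and the fit without the block left 13. Of 89 list and leading genes that passed, 10 passed in all alternatives. They were Ccl8, Gatm, Hp, Kcnk13, Pde4d, Plac8, Plcb1, S100a8, Trem2, and Vcan. Of these, Ccl8 and Kcnk13 passed the filter on low counts only through the members' sums.

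The 2 kinds of members were then set side by side as a description. The 62 members with at least 2 C1q UMIs had Pde4d at 402 and 390 CPM in libraries 1 and 2, and the 78 others had it at 358 and 526 CPM. Gatm was at 1049 and 897 CPM in the first and 748 and 991 CPM in the second, and Cd36 at 327 and 317 CPM and at 390 and 384 CPM. These 3 genes were thus near the same level in both kinds, and above the Arg1-negative cells of each library. Trem2 was higher in the C1q-positive members, at 298 and 217 CPM against 97.5 and 112 CPM. Ccl8 was at 424 and 371 CPM against 0 and 116 CPM. Ccl7 in library 2 was at 181 CPM in C1q-positive members and 272 CPM in the others, and Ccl2 at 118 and 246 CPM. In library 1 only 9 members fell under 2 C1q UMIs, and these held 13 of the 15 Egln3 UMIs of that library.

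Levels of Arg1 within the members were also set beside the other genes. Cells with 0, 1, 2, 3 to 4, 5 to 9, and at least 10 Arg1 UMIs numbered 7005, 112, 41, 33, 43, and 23, and their median depth rose from 2303 to 4379 UMIs, which by itself raises shares of cells with a UMI. The cells with exactly 1 Arg1 UMI, which entered a test only under the alternative threshold of 1 Arg1 UMI, held Pde4d in 35.7% of cases against 9.84% of cells with 0, Ccl7 in 16.1% against 4.33%, and Gatm in 71.4% against 49.6%, at a median depth of 2816.5 UMIs. Each of these 3 orders was the same in both libraries. Levels in CPM, which are scaled to depth, did not rise steadily with Arg1. Hmox1 was held by 25.9% of cells at 1 Arg1 UMI and 56.5% at 10 or more, but its level in libraries 1 and 2 was 158 and 201 CPM at 0, 514 and 183 CPM at 1 UMI, 920 and 857 CPM at 5 to 9, and 193 and 211 CPM at 10 or more. The level at 1 UMI was thus above that at 0 in library 1 but not in library 2, and 4 cells held 97 of the 145 Hmox1 UMIs of the bin of 5 to 9. Ccl7 was held by 12 of 34 cells with 5 to 9 Arg1 UMIs and 1 of 12 cells with at least 10 in library 2. In library 1 it was held by 0 of 9 and 0 of 11 such cells, which allows shares of cells with a UMI of up to 33.3% and 27.3%, and its 13 UMIs lay in members with 2 to 4 Arg1 UMIs. Gatm was at 366 and 436 CPM at 0 Arg1 UMIs, 594 and 740 CPM at 1, and between 823 and 1160 CPM in the 4 bins of members in either library. Mrc1 was held by none of the 41 cells with 2 Arg1 UMIs, which allows a share of cells with a UMI of up to 7.32% and does not limit the share that express the gene. It was held by 39.1% of the 23 deeper cells with at least 10, where its level was 559 and 181 CPM in libraries 1 and 2, and 81 of the 89 Ccl24 UMIs lay in the same bin. Vcan was held by 15.2% of cells without Arg1, 4.46% of those with 1 UMI, and 21.7% of those with at least 10, the last being 5 cells.

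**Figure D4:**
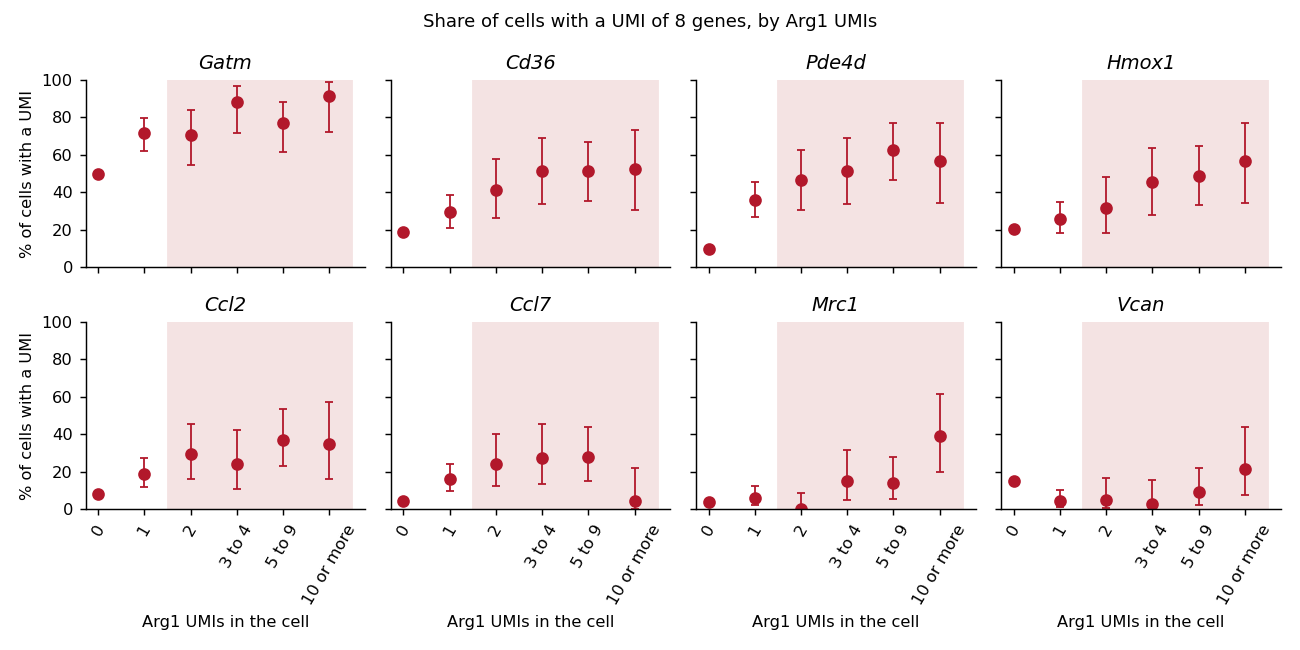
Percent of cells with at least 1 UMI of 8 genes (y axis) by the number of Arg1 UMIs in the cell (x axis), both libraries pooled, with 95% exact Clopper-Pearson intervals and the members on a shaded ground. Gatm runs from 49.6% at 0 Arg1 UMIs to 91.3% at 10 or more and Ccl7 from 4.33% to 4.35% with a peak of 27.9%, while the median depth of the cells rises from 2303 to 4379 UMIs. The peak of Ccl7 comes from library 2, with 12 of 34 cells against 0 of 9 in library 1.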

How the data were processed

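Viable CD45+ cells of rejecting kidney and naive spleen were profiled with a 10x Genomics Chromium 3′ kit. The authors mapped reads with Cell Ranger to mm10 (per the submitters' processing notes, version not given in the sources used here), filtered cells on UMIs, mitochondrial content, and expressed genes, and deposited raw UMI counts in 1 matrix per condition. The limits of these filters are not given in the sources used here, and the shallowest cell of the rejecting kidney held 1001 UMIs. Accepted grafts were not analysed here.

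Classes of cells were set by UMI rules. Their counts were summed in each of 2 libraries, and the 4 sums were tested with edgeR 4.0.16 (R 4.3.3): plain library totals, edgeR's filter on low counts, the quasi-likelihood test with the library as a block, Benjamini-Hochberg adjustment over all genes tested, and a threshold of 0.05. The scripts were tested on simulated data. Genes that chose a class were left out. The labels do not tie libraries to animals. With the library as a block, p-values rest on how far the class difference varied between the 2 libraries, with information shared across genes. With only 4 sums, much of it comes from other genes, so a small p-value does not show that the 2 libraries agreed. The signs in the 2 libraries were not alike for 3, 5, and 1 called genes in the 3 comparisons. The p-values do not measure the spread between animals or cells, and 2 libraries limit their precision. Each library yields both classes, so pairing comes from the library itself.

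Named genes are the given markers, the 10 largest changes in each direction (5 in the other comparisons) at a mean of at least 50 CPM, and members of gene lists with the largest changes or levels. The members and lists were chosen with earlier results of these data known. No doublet caller was run. Cells with a CD3 or Cd79a UMI were left out, and alternatives left out mixed cells and cells above the 95th percentile of UMIs. Other alternatives were TMM factors, DESeq2 1.42.0, no filter, no block, thinning to 1000 UMIs, other Arg1 thresholds, other comparison cells, and each library alone. Leaving out the cell richest in a gene was added after the data were seen. Shares of cells with a UMI were set beside those in cells of a second deposited matrix, the CD8+ T cells of the same graft, a background that was likewise chosen after the data were seen. Alternatives were run for the named genes and for every called gene of a list. Coordinates are from GENCODE release M21 of GRCm38. Ccl7 in naive spleen was not analysed.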

Additional observations from a re-analysis of the deposited data

How the results depend on the processing

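Against Arg1-negative myeloid cells the 252 calls became 52 in DESeq2, 63 after thinning, 124 at a threshold of 5 Arg1 UMIs, 451 when comparison cells with a CD3 or Cd79a UMI were kept, and 0 without the library block. Against C1q-positive macrophages the 160 calls became 22 in DESeq2, 3 after thinning, 27 without very deep cells, and 0 without the block. Against Ly6c2-high monocytes the 413 calls became 234 with TMM factors, 60 in DESeq2, 87 after thinning, and 13 without the block. The cause was not tested, though thinning lowers the UMIs summed. The share of Arg1-positive cells was 1.17% of CD45+ cells and became 2.11% at 1 Arg1 UMI, 0.552% at 5, 1.83% of the cells left when mixed cells were removed, and 0.594% when the threshold was applied after thinning. By library it was 0.837% to 1.45%. Counts of calls could not be had from 1 library, since 1 pair of sums leaves no residual degrees of freedom. Among the list and leading genes, 6 log2 changes turned sign. Leaving out 1 library in turn, Chil3 ranged from −1.25 to 2.61 against Arg1-negative cells, with the sign turned without library 1. Maf ranged from −0.064 to 1.02 against Arg1-negative cells and, against macrophages, from −0.23 to 1.35, Ccl6 from −0.26 to 1.58, and Top2a from −1.59 to 0.28, each with the sign turned without library 2. At 5 Arg1 UMIs, Apoe went from 0.46 to −0.067 against macrophages.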
